A study of Mus musculus with 8 samples.

Results

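The nuclear factor I (NFI) family of the mouse consists of 4 genes, Nfia, Nfib, Nfic and Nfix. Peaks of the histone mark H3K56ac, acetylated lysine 56 of histone H3, were collected in each gene and in the 50 kb on either side of it, and 218 of the 105600 peaks of the series lay there. The Nfib locus held 89 of them, the Nfia locus 75, the Nfix locus 34 and the Nfic locus 20. ChIP-seq, in which chromatin is precipitated with an antibody and its DNA sequenced, was done on freshly isolated MuSCs (muscle stem cells, which rest along the muscle fibre and rebuild it after injury), with 2 replicates in each of 4 groups (H3K56ac and input DNA, from Control and from Sirt6mKO mice). Both genotypes were on the C57BL/6 background, no treatment was given, and the labels give no age. Control mice are labelled wild type. In Sirt6mKO mice the deacetylase gene Sirt6 was deleted by a Cre recombinase expressed from the Pax7 locus, which acts in the whole Pax7-derived muscle lineage and not only in the adult stem cell. The values below come from a merged peak list that does not separate the genotypes or the replicates, so no difference between Control and Sirt6mKO could be tested, and there is no replicate spread for any value.

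NFI proteins bind DNA as dimers and recognise a palindrome built from the core TTGGC and its complement GCCAA with 5 bases between them, and a single core is bound more weakly. The members share a DNA-binding domain, most of which is encoded by the second exon, and differ in the C-terminal part that activates or represses transcription. In muscle, Nfix drives the switch from the embryonic to the fetal programme of myogenesis and is needed for regeneration by MuSCs. Nfia and Nfib are known from brain, lung and hair follicle stem cells, and Nfic from tooth root development.

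H3K56ac peaks covered a larger share of the 4 genes than of most genes of their length. Peaks overlay 84.1% of Nfia (ENSMUSG00000028565.18, chr4:97772734-98118874, plus strand, 346 kb), or 291 kb in 68 peaks. Nfix (ENSMUSG00000001911.16, chr8:84699876-84800344, minus strand, 100 kb) was covered to 75.2% by 21 peaks. Nfib (ENSMUSG00000008575.17, chr4:82290173-82705750, minus strand, 416 kb) was covered to 62.9%, or 261 kb in 81 peaks. Nfic (ENSMUSG00000055053.18, chr10:81396186-81455635, minus strand, 59.5 kb) had the lowest share, 48.1% under 7 peaks. All coordinates are those of build mm10 with the GENCODE annotation.

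Each share was then set beside those of the other protein-coding genes within 20% of the same length. None of the 314 genes as long as Nfia reached its share, and their median was 3.52%. For Nfib, 3 of 249 genes had the same share or more, with a median of 2.75%. Of 1211 genes as long as Nfix, 14 had the same share or more, with a median of 7.31%. Nfic stood lower in its own class, since 95 of 1677 genes reached its share and the median was 7.19%. Among protein-coding genes of at least 50 kb, 4.45% were covered to at least 50%, and over all protein-coding genes this share was 9.9%. Nfia, Nfib and Nfix passed that level and Nfic lay just below it. By covered bases, Nfia ranked 6th, Nfib 9th, Nfix 185th and Nfic 855th of 21938 protein-coding genes.

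**Figure D1:**
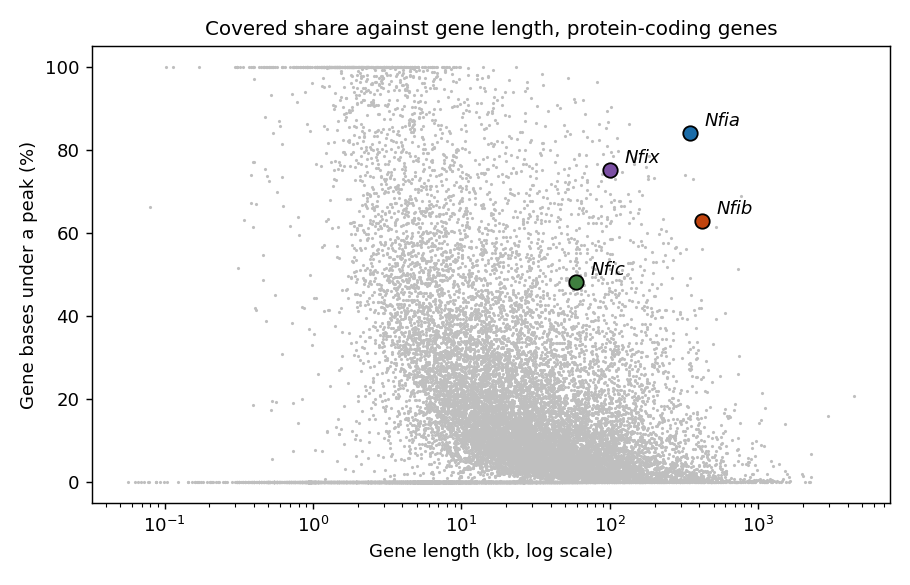
Covered share of each protein-coding gene (percent of gene bases under a peak, vertical axis) against gene length (kb, log scale), with 1 grey point per gene and the NFI genes as coloured circles. Nfia at 84.1%, Nfix at 75.2% and Nfib at 62.9% stand above nearly all genes of their length, and Nfic at 48.1% lies in the upper part of its length range.

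Density and width both differed from the rest of the list. There were 19.6 peaks per 100 kb in Nfia, 19.5 in Nfib, 20.9 in Nfix and 11.8 in Nfic, against 5.81 over all protein-coding genes of at least 50 kb. The median width at the 4 loci was 1260 bp, with quartiles of 693 and 3740 bp, against 974 bp over the series. Of the 218 peaks, 19 were at least 10 kb wide, a share of 8.72%, while 0.979% of all peaks were that wide. Nfia contained 10 peaks of at least 10 kb, and of the 722 protein-coding genes with any such peak only Zbtb20, a gene looked up after the counts were seen, contained more, namely 13. Nfib contained 8, the same number as 2010111I01Rik, and Nfic contained 1. Nfix contained 0, and its widest peak had 9113 bp. In Nfia the 6 widest peaks held at least 50% of the covered bases, and in Nfib the 9 widest.

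**Figure D2:**
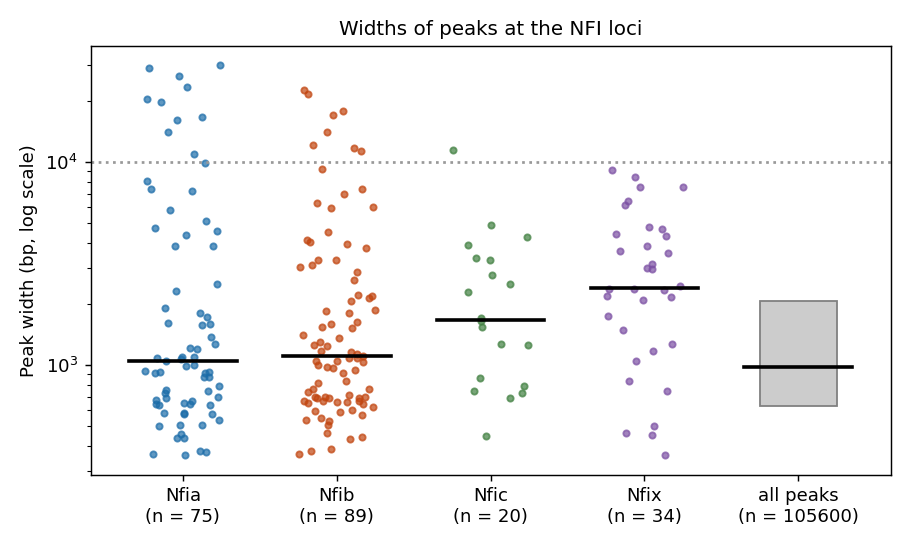
Width of each peak (bp, log scale) at the Nfia, Nfib, Nfic and Nfix loci, with 1 point per peak, the black bar at the median and the dotted line at 10 kb. The grey box gives the quartiles and the median of all 105600 peaks. Peaks above 10 kb are found at Nfia, Nfib and, with 1 peak, Nfic, while the Nfix locus has the highest median, 2410 bp, and none above 10 kb.

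The peaks also stood close together at the Nfia, Nfib and Nfix loci. Of the 214 gaps between neighbouring peaks at the 4 loci, 143 (66.8%) were under 1 kb, against 44.5% over the series. By locus this was 54 of 74 gaps at Nfia, 58 of 88 at Nfib, 22 of 33 at Nfix and 9 of 19 at Nfic. The Nfic locus did not share the close spacing, since its median gap was 3163 bp, against 1539 bp over the series. When peaks less than 1 kb apart were joined, 23 peaks of Nfib formed a region of 167 kb at chr4:82355249-82522076, the longest of the 58591 joined regions in the genome. The next longest, 165 kb, was at Zbtb20. The longest region of Nfia had 92.1 kb and ranked 12th, that of Nfix had 44.1 kb and ranked 135th, and that of Nfic had 29 kb and ranked 406th. The ranks move with the joining distance. With gaps under 0.5 kb joined, the longest region of Nfib had 99.8 kb and ranked 2nd while that of Nfia had 51.2 kb and ranked 44th. With gaps under 5 kb joined, Nfia had 271 kb and ranked 2nd and Nfib had 210 kb and ranked 4th. These other distances were chosen after seeing the data.

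The 4 genes differed in where along their length the peaks lay. Nfia was covered from end to end. In the first 10% of the gene 89.1% of the bases were under a peak, in the last 10% 76.9%, and the lowest share in between was 42%, after the first 70%. Its longest stretch without a peak had 5.64 kb. Nfix was covered to 98.1% in its first 10%, and its last 11.4 kb held no peak. Nfib had only 26.8% and 15.7% covered in its first and next 10%, rising to 98.5% in the sixth, and its upstream part contained the longest empty stretch of the 4 genes, 37.9 kb at chr4:82645387-82683314. Nfic had no peak in its first 19.2 kb nor in its last 11.3 kb, and between them the coverage reached 100%. The mean over protein-coding genes of at least 50 kb fell from 29.9% in the first 10% to 6.83% in the last.

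**Figure D3:**
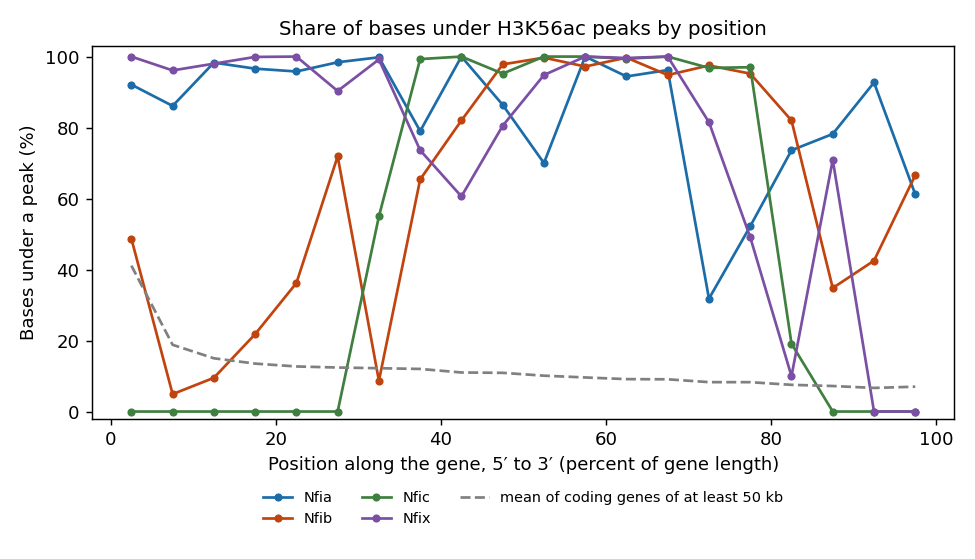
Share of bases under a peak (%) in 20 equal bins of each gene, 5′ to 3′ (percent of gene length), with a line for each NFI gene and a dashed line for the mean of protein-coding genes of at least 50 kb. Nfia and Nfix start near full coverage, Nfib and Nfic reach it only in the middle of the gene, and the mean gene falls from its 5′ end.

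The late rise of Nfib and Nfic followed from their outermost annotated starts. Nfib-212 begins 200442 bp upstream of the start of the reference transcript Nfib-201, and Nfic-207 begins 28462 bp upstream of that of Nfic-201. The reference transcript of a gene is its best-ranked protein-coding transcript by the APPRIS tags of GENCODE. Over the span of the reference transcript, Nfib was covered to 81.7%, Nfia to 84.3%, Nfix to 71.9% and Nfic to 69.4%. In the first 10% of these spans the shares were 99.7%, 92.6%, 99.4% and 100%. On this scale all 4 genes were covered nearly in full at the start and less in the last 10%, which was covered to 77.7% in Nfia, 64.3% in Nfib, 4.47% in Nfix and 0% in Nfic.

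**Figure D4:**
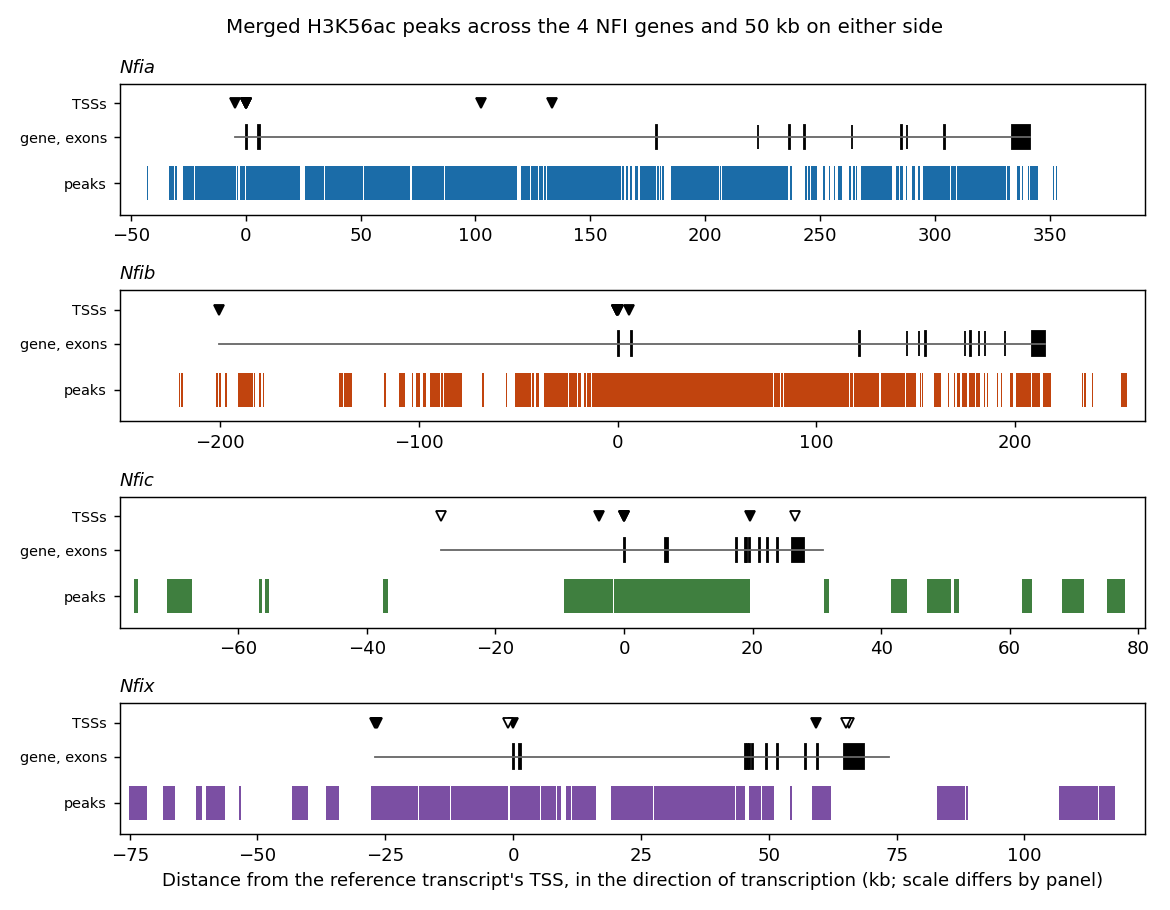
Merged H3K56ac peaks (coloured blocks) in the 4 NFI genes and 50 kb on either side, drawn by distance from the reference transcript's TSS in the direction of transcription (kb, scale differing by panel). Black boxes are exons of the reference transcript, filled triangles are TSSs under a peak and open triangles TSSs that are not, which number 2 in Nfic and 3 in Nfix.

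Of the 31 annotated transcription start site (TSS) positions of the 4 genes, 26 lay under a peak, a share of 83.9% (Wilson 95% confidence interval 67.4% to 92.9%, counting error only). Over the TSS positions of all protein-coding genes the share was 53.2%. In Nfia 8 of 8 and in Nfib 8 of 8 positions were under a peak, in Nfic 5 of 7 and in Nfix 5 of 8. Positions less than 500 bp apart share a promoter, and by this grouping there were 18 promoters, of which 13 had a TSS under a peak. Positions of the same promoter are not independent, so the interval above is too narrow. The share by promoter was not computed over all protein-coding genes.

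The alternative promoters differed in CpG content, which the choice of the loci did not use. The sequences below are the 250 bases before 5 starts, read in the direction of transcription from the GRCm38 genome of RefSeq, with CpG dinucleotides in capitals. The first 2 are CpG-rich starts under a peak, the third is a CpG-poor start under a peak, and the last 2 are protein-coding starts with no peak over them.
Nfia-202 (chr4:97777358-97777607, plus strand): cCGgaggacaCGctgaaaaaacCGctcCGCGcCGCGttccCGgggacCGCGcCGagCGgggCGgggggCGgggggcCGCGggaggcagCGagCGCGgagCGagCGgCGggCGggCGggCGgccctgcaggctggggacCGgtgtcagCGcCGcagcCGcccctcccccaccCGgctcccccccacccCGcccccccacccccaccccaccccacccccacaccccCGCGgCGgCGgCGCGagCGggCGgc
Nfic-204 (chr10:81431006-81431255, minus strand): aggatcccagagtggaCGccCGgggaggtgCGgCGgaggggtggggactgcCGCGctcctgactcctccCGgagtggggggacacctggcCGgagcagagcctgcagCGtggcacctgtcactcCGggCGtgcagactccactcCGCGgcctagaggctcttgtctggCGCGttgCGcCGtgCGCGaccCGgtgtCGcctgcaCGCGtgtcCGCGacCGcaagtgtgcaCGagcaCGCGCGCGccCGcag
Nfib-212 (chr4:82705751-82706000, minus strand): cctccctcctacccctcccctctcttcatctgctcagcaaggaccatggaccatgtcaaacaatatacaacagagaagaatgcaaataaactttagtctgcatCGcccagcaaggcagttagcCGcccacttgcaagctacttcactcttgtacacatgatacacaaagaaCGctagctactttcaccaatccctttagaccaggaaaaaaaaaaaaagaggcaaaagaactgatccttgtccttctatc
Nfic-207 (chr10:81455636-81455885, minus strand): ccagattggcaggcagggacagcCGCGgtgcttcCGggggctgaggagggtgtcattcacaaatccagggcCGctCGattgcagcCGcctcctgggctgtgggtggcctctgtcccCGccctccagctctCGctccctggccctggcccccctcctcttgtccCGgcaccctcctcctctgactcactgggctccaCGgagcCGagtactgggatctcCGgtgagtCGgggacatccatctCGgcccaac
Nfix-203 (chr8:84774370-84774619, minus strand): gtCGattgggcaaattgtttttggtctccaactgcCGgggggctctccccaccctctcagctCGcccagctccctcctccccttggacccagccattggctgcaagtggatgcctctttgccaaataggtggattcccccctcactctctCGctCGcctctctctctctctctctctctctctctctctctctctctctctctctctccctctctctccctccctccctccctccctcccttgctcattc

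The ratio of observed to expected CpG in these windows was 0.88 for Nfia-202 and 0.96 for Nfic-204. It was 0.27 for Nfib-212, 0.49 for Nfic-207 and 0.31 for Nfix-203. Of the 31 NFI positions, 18 had a ratio of at least 0.6, and 18 of these 18 lay under a peak. They fall in only 5 promoters, and their windows overlap within a promoter. Each of the other 13 positions was a promoter of its own, and 8 of them lay under a peak. Over protein-coding genes, 91.2% of the positions with a ratio of at least 0.6 and 28.7% of those below it were under a peak. The 5 uncovered NFI positions had ratios of 0.23 to 0.49. The level of 0.6 is that commonly used for CpG islands, and it was set with earlier results in view.

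**Figure D5:**
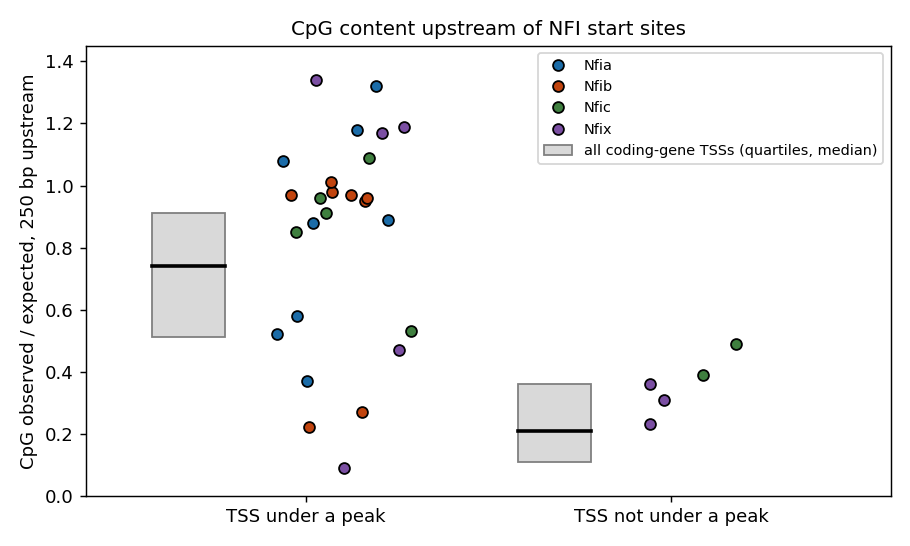
Observed over expected CpG in the 250 bp upstream of each annotated NFI TSS (vertical axis), for TSSs under a peak and not under a peak, with 1 point per TSS position. Grey boxes give the quartiles and the median of all protein-coding TSSs of that class. The 5 uncovered NFI starts lie between 0.23 and 0.49, and the 26 covered ones range from 0.09 to 1.34.

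Taken as single intervals, the peaks over the main promoters reached mostly into the gene, but further peaks lay close upstream of some of them. With peaks less than 1 kb apart joined, the region over Nfia-202 (chr4:97750478-97801141, 50.7 kb) extended to both sides of the start. The joined region of Nfib given above likewise extended upstream of the start of Nfib-201. The peak over Nfia-202 had 23574 bp (chr4:97777568-97801141), began 40 bp upstream of the start and ran across exons 1 and 2. It also held a TSS of E130114P18Rik, a gene whose annotated span overlaps the start of Nfia. Upstream of it, Nfia-208 lay near the 3′ edge of a peak of 16160 bp (chr4:97756981-97773140) that reached 15753 bp before its start. The 2 internal starts of Nfia, Nfia-207 and Nfia-206, lay in intron 2 under peaks of 26502 bp (chr4:97864353-97890854) and 29969 bp, the latter the widest of the 4 loci (chr4:97909681-97939649).

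At Nfib, the starts of Nfib-201 and Nfib-202 lay under a peak of 17950 bp (chr4:82487458-82505407) that ended 99 bp upstream of them and also held the starts of Nfib-207, Nfib-209 and Nfib-211. A second peak of 1106 bp (chr4:82505439-82506544) covered the starts of Nfib-203 to Nfib-206, Nfib-208 and Nfib-210. The distal start of Nfib-212 had a peak of 1035 bp (chr4:82704962-82705996). The widest peak of the locus, 22627 bp at chr4:82399019-82421645, touched no annotated TSS and lay wholly within intron 2 of Nfib-201, 83.7 to 106 kb downstream of the start.

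At Nfic, a peak of 11493 bp (chr10:81417205-81428697) covered the starts of Nfic-201, Nfic-202 and Nfic-203 together with exons 1 and 2, and was the widest of the locus. Nfic-204 lay under a peak of 3313 bp (chr10:81428840-81432152) and Nfic-205 under a peak of 1270 bp (chr10:81407507-81408776). The start of Nfic-207, the outermost of the gene, lay 8241 bp from the nearest upstream peak and 19171 bp from the nearest downstream peak. Nfic-206, a non-coding transcript near the 3′ end, started 6953 bp from the nearest peak upstream.

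At Nfix, the distal starts of Nfix-201, Nfix-202 and Nfix-205 shared the widest peak of the locus, 9113 bp at chr8:84792069-84801181. Nfix-204, 26948 bp downstream of the start of Nfix-202, lay under a peak of 4657 bp (chr8:84769323-84773979). The start of Nfix-203 fell in a gap between peaks, 71 bp from the upstream and 390 bp from the downstream peak. It counts as uncovered only by this margin. Nfix-206, a transcript with a retained intron, lay under a peak of 3560 bp (chr8:84711274-84714833). Nfix-207 and Nfix-208, non-coding transcripts at the 3′ end, lay 3056 and 3558 bp from the nearest peak upstream.

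Introns make up most of the span of each reference transcript, and so they also carried most of its covered bases. Of the 626 kb of introns in the reference transcripts, 83.1% was under a peak, by gene 85.6% in Nfia, 82.1% in Nfib, 76.5% in Nfix and 74.7% in Nfic. The first intron of the reference transcript was wholly covered in all 4 genes, over 5.09 kb in Nfia, 5.96 kb in Nfib, 6.28 kb in Nfic and 1.04 kb in Nfix. Among protein-coding genes 19.7% of first introns, and 12.3% of those of 1 to 10 kb, were wholly covered. From the outermost start of each gene, the first intron was covered to 86.5% in Nfia-208, 44.4% in Nfib-212, 44.6% in Nfic-207 and 97.2% in Nfix-202. The second intron is the longest of each reference transcript, and it was covered to 93% of its 173 kb in Nfia, 97.6% of 115 kb in Nfib, 98.8% of 10.6 kb in Nfic and 89% of 43.8 kb in Nfix. In protein-coding genes of at least 50 kb the median was 17.9% for the first intron and 2.04% for the other introns.

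Exon 2 stood out in the same way. It measured 532 bp in each of the 4 reference transcripts, was coding throughout, and was wholly covered in all of them by the peak that covered exon 1. Among protein-coding genes, 23.8% of second exons were wholly covered. Of the 44 exons of the reference transcripts, 28 touched a peak, against 15.1% of the exons of all protein-coding genes. Of the exon bases 44.3% were covered, against 13.7%. By gene this was 70.6% in Nfib, 39.4% in Nfia, 30.6% in Nfic and 18.8% in Nfix, where the last exon of 3966 bp held no peak.

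Several introns in the 3′ part of the genes broke the pattern. In Nfia, intron 5 of 6.5 kb was covered to 15.4%. In Nfib, intron 10 of 10.1 kb was covered to 12.7%. In Nfic, introns 7, 8 and 9 held no peak, and in Nfix intron 8 of 5.35 kb was covered to 9.36%. The widest peaks that lay wholly within an intron and touched no TSS had 20400 bp in intron 3 of Nfia (chr4:97962606-97983005), 8441 bp in intron 2 of Nfix (chr8:84737440-84745880) and 1701 bp in intron 2 of Nfic (chr10:81410514-81412214), beside the Nfib peak described above.

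The flanks were unequal. In the 50 kb upstream of Nfia 51.6% of the bases were covered, and in the 50 kb downstream 9.76%. The upstream flank of Nfia lies wholly within the annotated span of E130114P18Rik (chr4:97568133-97778078), a protein-coding gene with 9 of 9 TSSs under a peak. The flanks of Nfix were covered to 35.4% and 32.7%, those of Nfic to 13% and 30.8% and those of Nfib to 5.61% and 15.4%. The loci also differed in how many other genes they hold. The Nfic locus held 17 other genes with a TSS inside it and the Nfix locus 11, against 5 at Nfib and 3 at Nfia, and 26 of these 36 genes had a TSS under a peak, as did 33.6% of all annotated genes. Of the 21 protein-coding genes among them 16 had one, against 62.1% of all protein-coding genes. At Nfic, 9 of the 20 peaks lay over a TSS of another gene only, while at Nfia this was 0 of 75.

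The neighbours included genes with strong and with no coverage. Ier2, an immediate early gene downstream of Nfix, was covered to 100% by a peak of 7574 bp. Calr, which encodes calreticulin, had 3 of 4 TSSs under a peak. Lyl1, a transcription factor gene of blood cells that lies inside the annotated Nfix gene, had no peak within 3 kb of its TSS and 0% of its bases covered, within the empty 3′ end described above. S1pr4, a sphingosine 1-phosphate receptor gene of lymphocytes near Nfic, had its TSS outside any peak although a peak of 3910 bp lay within 3 kb. The predicted genes Gm11266, Gm11267, Gm11268 and Gm11269 inside Nfib each had their TSS under a peak.

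The NFI palindrome was searched on both strands as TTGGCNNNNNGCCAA, and 4 matches were found in the 754 kb of peaks at the 4 loci, 3 at Nfia and 1 at Nfib. They are given to show where the family's own recognition sequence lies in its peaks, on the strand of the gene, with the match in capitals.
Nfia site (chr4:97776496-97776530, plus strand): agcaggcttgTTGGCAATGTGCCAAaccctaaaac
Nfia site (chr4:97869249-97869283, plus strand): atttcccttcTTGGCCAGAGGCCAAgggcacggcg
Nfia site (chr4:97876111-97876145, plus strand): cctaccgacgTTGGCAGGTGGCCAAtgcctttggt
Nfib site (chr4:82379270-82379304, minus strand): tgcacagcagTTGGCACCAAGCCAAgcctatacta

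The first of these lay upstream of Nfia-202, in a peak of 2310 bp between the starts of Nfia-208 and Nfia-202. The next 2 lay in the peak of 26502 bp in intron 2 of Nfia, and the Nfib match in intron 3 under a peak of 12188 bp. That is 0.00531 matches per kb of peak, beside 0.00109 per kb over all peaks with 201 matches. With so few matches the rates carry a large counting error. None of the 218 central windows of 300 bp held a match, which allows a share of up to 1.38%, and over all peaks 0.0379% did. Among the 250-base windows upstream of protein-coding TSSs, 0.0214% held one.

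The other motifs were no more frequent at the NFI loci than elsewhere. The core TTGGC occurred 1.85 times per kb at the 4 loci and 1.94 times per kb over all peaks, and it includes the cores of the palindromes. The AP-1 site TGANTCA was in 7.34% of the central windows at the 4 loci and in 8.86% of all. The E-box CAGCTG, which myogenic factors bind, was in 13.3% and in 17%. Median GC content was 43.3% at the 4 loci and 45.8% over the series, and it was higher at Nfic (55.9%) and Nfix (52.6%) than at Nfia (41.6%) and Nfib (42.3%). A match shows that the letters are present and not that the factor was bound.

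The genes most like each member in coverage along their length were taken from the protein-coding genes within 20% of its length, by the root mean square difference over 20 bins. For Nfia these were Ror1 (23 percentage points, 83.2% covered), Cux1 (26.3, 74% covered) and 2010111I01Rik (33, 72.9% covered). Nfix came closest to Lrig1 (21.7 percentage points, 80.9% covered), Pik3r1 (24.4) and Sytl2 (25.1). For Nfib and Nfic the differences were larger. The nearest genes were 2010111I01Rik, Arhgap24 and Foxn3 for Nfib at 34.7 to 37 percentage points, and Ldb3, Asb5 and Urgcp for Nfic at 37.3 to 39.5.

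Genes tied to NFIX in muscle were compared by whether a peak lay within 3 kb of a TSS, as it did in 67.8% of protein-coding genes. A peak was found for 13 of 13 genes. Their median covered share was 27.5%, against 69% over the 4 NFI genes and 7.82% over all protein-coding genes. These 13 genes were not set beside genes of like length, and a promoter peak fills a larger share of a short gene. Pax7, which acts upstream of Nfix, was covered to 86.7% with a peak of 21301 bp at a promoter, and the activator Junb to 100%. Among the signalling genes known to control Nfix expression, the GTPase gene Rhoa was covered to 28.5% and the ERK kinase gene Mapk3 to 66.9%. Of the genes that NFIX acts on, Mstn, the gene of the growth inhibitor myostatin, was covered to 39.1%, Ckm, muscle creatine kinase, to 9.67% with 0 of 3 TSSs under a peak, and the slow myosin gene Myh7 to 11%.

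The same readout was taken for cell type markers, beside the 67.8% of all protein-coding genes with such a peak. Of the MuSC markers Pax7, Myf5, Calcr, Cdh15, Itga7 and Vcam1, 6 of 6 had a promoter peak, with a median covered share of 65.2%. Of 8 markers of other cells 3 had one, namely Pecam1 (27.5% covered), Cd79a (24.2%) and Pdgfra (11.1%). All 3 lay below the lowest share among the MuSC markers, 30.2% at Itga7, though Pecam1 was close to it. The markers differ in length, and their shares were not set beside those of genes of like length. At Pdgfra 5 of 9 TSSs lay under a peak, at Pecam1 1 of 8 and at Cd79a 0 of 1. The markers Ptprc, Cd3e, Cdh5, Tie1 and Ly6a had no promoter peak. Both marker lists were chosen with earlier results known, so they are no independent check of the cell type.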

How the data were processed

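H3K56ac ChIP-seq and input libraries of MuSCs were described by 8 samples in 4 groups of 2 replicates. According to the methods of the study, the authors trimmed reads with Trim Galore, aligned them with bowtie keeping uniquely aligned reads, removed duplicates with Picard, called peaks with MACS2, removed blacklisted regions and reduced overlapping peaks to 1 list with GenomicRanges. The submitters' processing notes name FastQC, Bowtie, SAMtools and deepTools and the build mm10. The deposited list gives positions, and its score column was 0 in every row, so peak strength is unknown. The list holds 0 columns of values per sample. Read counts of each library are given in the study's reporting summary and were not used here. Merging adds, widens and fuses intervals, so counts and widths describe a union of peaks that may come from either genotype. The paper reports a global rise in the number of H3K56ac peaks in Sirt6mKO MuSCs and describes broad peaks after loss of Sirt6. How much of the counts, widths and covered shares comes from the Sirt6mKO libraries was not tested. Unique alignment removes reads from repeated sequence.

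Positions were compared with GENCODE vM21 and sequences were read from the GRCm38.p6 genome of RefSeq, the same build, and 0 peaks ran past a chromosome end. A peak was counted where it overlapped a gene, its 50 kb flank or a TSS by at least 1 bp. Analyses were run in Python 3.11.15 with NumPy 2.4.6 and SciPy 1.17.1, and the interval functions were tested on simulated data. The members, gene lists, motifs and named items were chosen with earlier results of these data known. Named are the 4 genes, genes with a TSS in a locus, the 3 genes most alike in coverage, genes linked to NFIX, the widest peak, the peaks over a TSS and the widest intron peak of each locus. No test was run. Other flanks, gene spans, width minimums and joined intervals were tried as alternatives. Some items at these loci are not reported here.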

Additional observations from a re-analysis of the deposited data

How the results depend on the processing

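The number of peaks at the 4 loci was 177 without flanks, 259 with flanks of 100 kb, 201 with intervals of at least 500 bp only, and 75 after intervals less than 1 kb apart were joined, by construction. The share of the 4 genes covered, 71.2% in all, was 81.5% over the spans of the reference transcripts, 75.3% with joined intervals and 70.8% with intervals of at least 500 bp. The share of TSS positions under a peak stayed between 83.9% and 90.9% under its 4 alternatives. The first 10% of the 4 genes, 56.2% covered in all, was covered to 96% over the reference transcripts, where the distal starts of Nfib-212 and Nfic-207 are left out, and to 60% with joined intervals. The share of intron bases covered was 72.3% when any base in no exon of any transcript counted as intron, 87.2% with joined intervals and 82.6% with intervals of at least 500 bp. Against all protein-coding genes in place of genes of like length, the percentile of the covered share was 96.6 for Nfia, 93.5 for Nfib, 95.6 for Nfix and 89.4 for Nfic. No paired analysis was possible because replicates are not separated in the peak list. Intervals found in 1 library and in all libraries cannot be told apart.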
